A study of Mus musculus with 15 samples.

Results

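The endothelin, adrenomedullin and nitric oxide genes are 10 genes through which brain vessels set their tone: the endothelin peptides Edn1 and Edn3, their receptors Ednra and Ednrb and the processing enzyme Ece1; the peptide Adm with its receptor parts Calcrl and Ramp2; and the nitric oxide synthase Nos3 with the nitric oxide receptor subunit Gucy1a1. They were chosen by name, from the Gene IDs of the count table, and are 10 of the 17892 genes with values. RNA was sequenced from PDGFRβ+ cells of mouse brain in 15 libraries, from miR-210 knockout (KO) and wild-type (WT) mice. Each genotype was studied 24 h after neonatal hypoxia-ischemia (HI) and as sham. There were 4 KO HI libraries (numbered 1, 2, 3 and 4), 4 WT HI libraries (1, 2, 4 and 5), 4 KO sham libraries (1, 3, 4 and 6) and 3 WT sham libraries (1, 2 and 3), and values below follow that order. The labels give genotype, treatment and a number for each library; they give no age, sex or strain and do not say whether libraries came from separate animals, so p-values measure the spread between these libraries, which may be technical.

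Endothelin-1 is made as a long precursor, which endothelin-converting enzyme (Ece1) cuts to a peptide that constricts vessels through receptor A (Ednra) on pericytes and smooth muscle. Endothelin-3 binds receptor B (Ednrb), which endothelial cells and astrocytes carry. Adrenomedullin, a vasodilator whose gene responds to hypoxia, binds a receptor made of Calcrl and its partner Ramp2, while nitric oxide made by Nos3 in endothelium binds soluble guanylate cyclase, made of the α1 chain (Gucy1a1) and the β1 chain (Gucy1b1), in neighbouring mural cells, where cyclic GMP relaxes them.

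The gene deleted in the KO mice encodes a microRNA, so the mature sequence and the match to its seed among the 10 genes are shown. The strand is the minus strand at chr7:141221407-141221428 (RefSeq, GRCm38.p6), and capitals mark the seed, bases 2 to 8 from the 5′ end. The complement of the seed is ACGCACA. It was present in the annotated 3′ UTR of any coding transcript for 680 of 20957 genes (3.24%). Of the 10 genes it was present in Ece1, at chr4:137964232-137964238 (GENCODE, GRCm38, plus strand), which is base 1326 of a 3′ UTR of 2323 bases. The Ece1 site is shown with its flanks, the match in capitals. A match describes the letters and is not evidence of binding.
mmu-miR-210-3p: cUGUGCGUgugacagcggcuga
Ece1 3′ UTR site: cacccgtggcACGCACAttgaatca
Values for the microRNA gene itself were not analysed here, so its loss was not checked in these libraries.

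Promoters are shown for Edn1 and Ece1, the peptide and its enzyme, which had the lowest adjusted p-values of the 10 genes in KO HI against WT HI. Both held the hypoxia response element core ACGTG in a promoter window of 300 bases, 250 before and 50 from the start site on. For Ece1 this was 1 of its 4 windows. The RefSeq promoter table (GRCm38.p6) covered 8 of the 10 genes, all but Ramp2 and Nos3. On either strand, ACGTG was found in windows of Edn1, Ece1 and Gucy1a1, 3 of 8 genes, against 21.78% of 27025 genes and 19.62% of 32851 windows. Ece1 and Gucy1a1 have more than a single window, and in each gene a single window held the core. A gene with more windows has more room for a match, so 3 of 8 is not like for like with these shares. The GATA motif (AGATAA or TGATAA) was found in Edn1 alone of the 8, against 20.96% of genes and 18.61% of windows, and the AP-1 motif (TGANTCA) in 0 of 8, against 8.97% of genes and 7.81% of windows. No searched motif overlaps another in the windows shown. The windows lie on the plus strand at chr13:42301226-42301525 for Edn1 and chr4:137913308-137913607 for Ece1. That of Ece1 is 1 of 4 Ece1 start sites in the table, and the windows of the others held none of the searched motifs. In Edn1 capitals mark the GATA motif, 8 bases after the start, and the hypoxia core, 21 bases after it, both read on the other strand. In Ece1 they mark the hypoxia core on both strands, beginning 90 bases before the start.
Edn1 promoter: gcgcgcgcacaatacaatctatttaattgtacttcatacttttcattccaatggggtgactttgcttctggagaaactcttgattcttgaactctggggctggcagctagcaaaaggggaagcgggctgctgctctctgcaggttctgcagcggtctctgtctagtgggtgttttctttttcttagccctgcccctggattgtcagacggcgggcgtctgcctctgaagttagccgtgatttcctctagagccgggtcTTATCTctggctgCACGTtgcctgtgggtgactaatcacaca
Ece1 promoter: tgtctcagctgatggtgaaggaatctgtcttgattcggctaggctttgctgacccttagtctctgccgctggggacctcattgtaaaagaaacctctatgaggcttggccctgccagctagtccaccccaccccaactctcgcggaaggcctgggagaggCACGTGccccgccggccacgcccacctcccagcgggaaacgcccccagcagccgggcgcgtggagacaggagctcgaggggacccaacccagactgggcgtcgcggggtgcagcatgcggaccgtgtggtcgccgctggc

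Expected counts summed to 16291948 to 18118697 in KO HI libraries, 17277866 to 17865974 in WT HI, 15436376 to 17306041 in KO sham and 17539492 to 17911825 in WT sham. Levels are given as counts per 1000000 (CPM) of the library size scaled by the trimmed mean of M-values (TMM). The sorted receptor Pdgfrb ran from 193.7 to 596.3 CPM in KO HI libraries, 751.4 to 1049.2 CPM in WT HI, 250.9 to 785.3 CPM in KO sham and 688.2 to 986.8 CPM in WT sham, so the receptor gene was detected in every library at unequal levels. Endothelial transcripts were abundant as well: 12 endothelial markers summed to 2312.0 to 4892.9 CPM in KO HI, 7375.9 to 9564.2 CPM in WT HI, 2770.4 to 8162.9 CPM in KO sham and 7844.1 to 9234.2 CPM in WT sham. The 10 pericyte markers summed to 1686.6 to 5684.2, 5895.3 to 8239.6, 2923.7 to 8498.2 and 8143.9 to 11266.3 CPM in KO HI, WT HI, KO sham and WT sham, and 9 microglia markers to 5401.1 to 11670.3, 1539.3 to 4174.4, 3014.1 to 5375.5 and 2252.5 to 3217.8 CPM. Neuron markers (8 genes) stood apart in 5 libraries, which were KO HI 3 (summed to 1143.5 CPM), KO HI 2 (298.8 CPM), KO sham 1 (1871.5 CPM), KO sham 3 (362.0 CPM) and WT sham 2 (174.6 CPM), against 42.2 to 112.7 CPM elsewhere. No marker was at 0 in all libraries of a group. In bulk RNA, fewer cells of a type and less RNA per cell cannot be told apart.

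Between genes, levels were compared per kilobase of exon. Ramp2 was highest of the 10 genes in every group, at 123.3 ± 34.5 CPM per kb in KO HI, 240.4 ± 17.7 in WT HI, 181.1 ± 94.3 in KO sham and 221.8 ± 11.3 in WT sham (SD, n = 4, 4, 4 and 3). Nos3 and Ece1 followed in every group. Ece1 was above Nos3 in 4 of 4 WT HI libraries, at 125.9 ± 16.0 against 110.2 ± 13.2 CPM per kb, whereas Nos3 was above Ece1 in 4 of 4 KO sham and 3 of 3 WT sham libraries and in 2 of 4 KO HI libraries. Edn1 had rank 9 of 10 in KO HI libraries, at 10.5 ± 2.48 CPM per kb, and rank 4 in WT HI libraries, at 38.1 ± 8.63. In KO HI libraries its neighbour Calcrl (12.2 ± 4.92) was above it in 2 of 4 libraries. Adm had the lowest mean in every group, between 3.74 ± 1.89 CPM per kb in KO sham and 11.1 ± 3.24 in WT HI, although Ednrb lay below it in 3 of 4 WT HI libraries. From the fourth to the eighth gene of the order in KO HI libraries (Ednrb, Ednra, Gucy1a1, Edn3 and Calcrl) each gene exceeded its next neighbour in 2 of 4 libraries, so those neighbours were not separated.

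**Figure D1:**
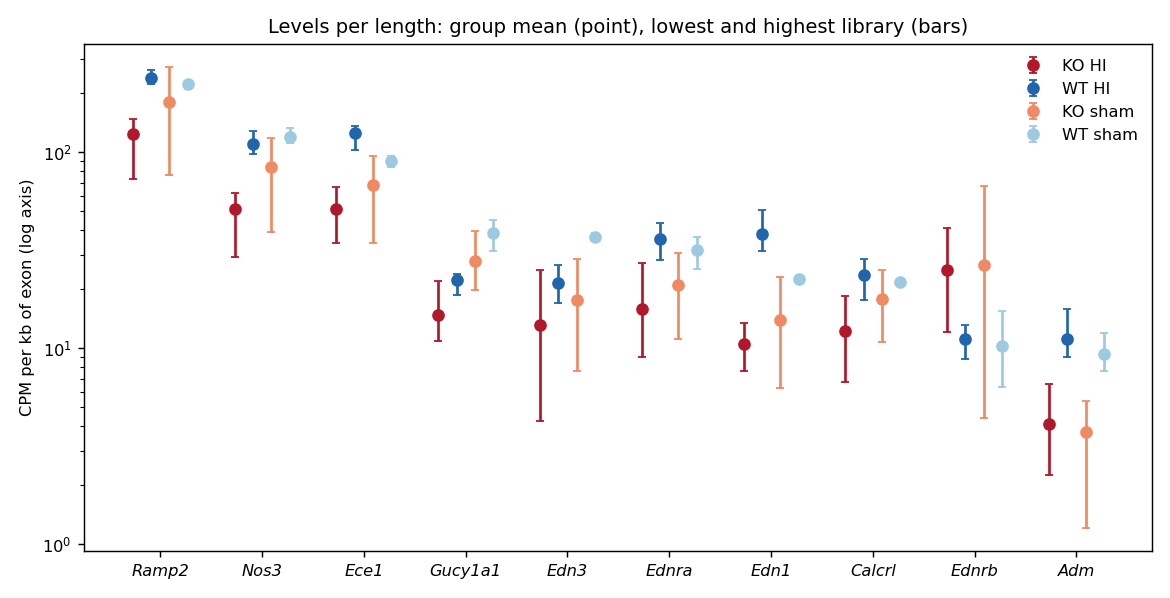
Mean CPM per kb of exon on a log axis for the 10 genes (x axis), with bars from the lowest to the highest library, for KO HI, WT HI, KO sham and WT sham. Ramp2, Nos3 and Ece1 lie above the rest, and Adm has the lowest mean in each group.

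The endothelin peptide and its enzyme were low in KO HI libraries and high in WT HI libraries. Edn1 (Gene ID 13614; chr13:42301476-42307990, GRCm38.p6, as for all positions of genes) had 24.5, 16.3, 20.4 and 28.7 CPM in KO HI libraries, 108.6, 74.5, 67 and 76.1 CPM in WT HI, 13.4, 28.3, 49.6 and 28.1 CPM in KO sham, and 48.4, 48.1 and 47.9 CPM in WT sham. Every WT HI library was above every library of the other groups, and every KO HI library was below every WT sham library. Ece1 (Gene ID 230857; chr4:137862237-137965229) had 279.8, 221.3, 166.2 and 319.1 CPM in KO HI, 657.0, 491.9, 648.3 and 627.9 CPM in WT HI, 165.3, 295.7, 461.2 and 382.1 CPM in KO sham, and 458.4, 406.9 and 431.8 CPM in WT sham. As for Edn1, all 4 WT HI libraries were the highest and KO HI did not overlap WT HI. Edn3 (Gene ID 13616; chr2:174760619-174784042), the ligand of receptor B, ran the other way in WT mice, with 13.3 to 78.4 CPM in KO HI, 53.2 to 83.4 CPM in WT HI, 23.8 to 89.0 CPM in KO sham and 110.0 to 121.0 CPM in WT sham. Its 3 WT sham libraries were above all others. The ratio of Edn1 to Edn3 differed accordingly: on the log2 scale of CPM + 0.5 it was -0.62 ± 0.86 in KO HI, 0.29 ± 0.56 in WT HI, -0.87 ± 0.07 in KO sham and -1.25 ± 0.07 in WT sham.

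The receptors differed from each other. Ednra (Gene ID 13617; chr8:77663029-77724452) had 57.4, 41.2, 32.8 and 98.9 CPM in KO HI libraries, 158.2, 101.8, 136.4 and 127.2 CPM in WT HI, 40.1, 68.9, 111.2 and 84.0 CPM in KO sham, and 133.9, 91.6 and 118.3 CPM in WT sham. KO HI lay below WT HI without overlap. Ednrb (Gene ID 13618; chr14:103814615-103844508) had 51.4, 138.1, 175.2 and 61.7 CPM in KO HI, 56.3, 53.9, 37.8 and 42.4 CPM in WT HI, 286.8, 101.3, 18.8 and 48.9 CPM in KO sham, and 26.9, 65.7 and 39.7 CPM in WT sham. Its 5 highest libraries were KO sham 1, KO HI 3, KO HI 2, KO sham 3 and WT sham 2. These were the 5 libraries with the most neuron transcripts, and the 7 astrocyte markers were also highest there, at 1672.9 CPM (WT sham 2) to 13666.7 CPM (KO sham 1), against 452.6 to 1102.5 CPM in the other 10. The part of astrocyte RNA in the Ednrb level was not tested.

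Adm was lower in KO than in WT libraries after HI, and its receptor parts Calcrl and Ramp2 had lower means there without passing the test. Adm (Gene ID 11535; chr7:110627657-110629820) had 7.01, 3.11, 3.57 and 9.17 CPM in KO HI libraries, 22.1, 12.5, 12.9 and 14.1 CPM in WT HI, 1.68, 4.76, 7.47 and 6.91 CPM in KO sham, and 16.5, 10.6 and 11.7 CPM in WT sham. Every KO library, HI or sham, was below every WT library, on counts of 23 to 164 in KO and 190 to 386 in WT libraries. The share of all tested genes split this way was not counted. All 10 pericyte and all 12 endothelial markers also had negative log2 fold changes in KO against WT, after HI and in sham. Calcrl (Gene ID 54598; chr2:84330626-84425405), the receptor itself, had 32.7 to 90.4 CPM in KO HI, 86.3 to 138.6 CPM in WT HI, 52.2 to 122.6 CPM in KO sham and 104.0 to 109.2 CPM in WT sham. Ramp2 (Gene ID 54409; chr11:101246334-101248250), which brings Calcrl to the cell surface, had 193.1, 186.5, 95.3 and 166.4 CPM in KO HI, 342.6, 288.3, 315.9 and 303.2 CPM in WT HI, 99.7, 164.9, 323.0 and 354.0 CPM in KO sham, and 301.4, 272.4 and 291.4 CPM in WT sham. KO HI did not overlap WT HI for Ramp2, and a single KO HI library overlapped it for Calcrl.

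Nos3, the endothelial nitric oxide synthase, and Gucy1a1 did not follow the same order of groups. Nos3 (Gene ID 18127; chr5:24364816-24384474) had 241.0, 234.4, 120.2 and 255.0 CPM in KO HI libraries, 531.5, 405.3, 453.7 and 430.9 CPM in WT HI, 161.0, 319.7, 488.0 and 426.5 CPM in KO sham, and 547.9, 459.7 and 477.9 CPM in WT sham. It was low in all 4 KO HI libraries and in KO sham 1, and WT HI overlapped WT sham. Nos3 overlaps Atg9b by 294 bases, and no strand of counting is given in the sources used here, so reads from that stretch could belong to either gene. Gucy1a1 (Gene ID 60596; chr3:82092427-82145946) had 57.1, 69.4, 52.6 and 105.7 CPM in KO HI, 112.8, 90.0, 111.5 and 115.2 CPM in WT HI, 96.1, 129.5, 190.7 and 124.4 CPM in KO sham, and 217.8, 150.5 and 188.8 CPM in WT sham. Here HI libraries were the low ones, below sham in both genotypes except for an overlap of KO HI 4 with KO sham 1.

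**Figure D2:**
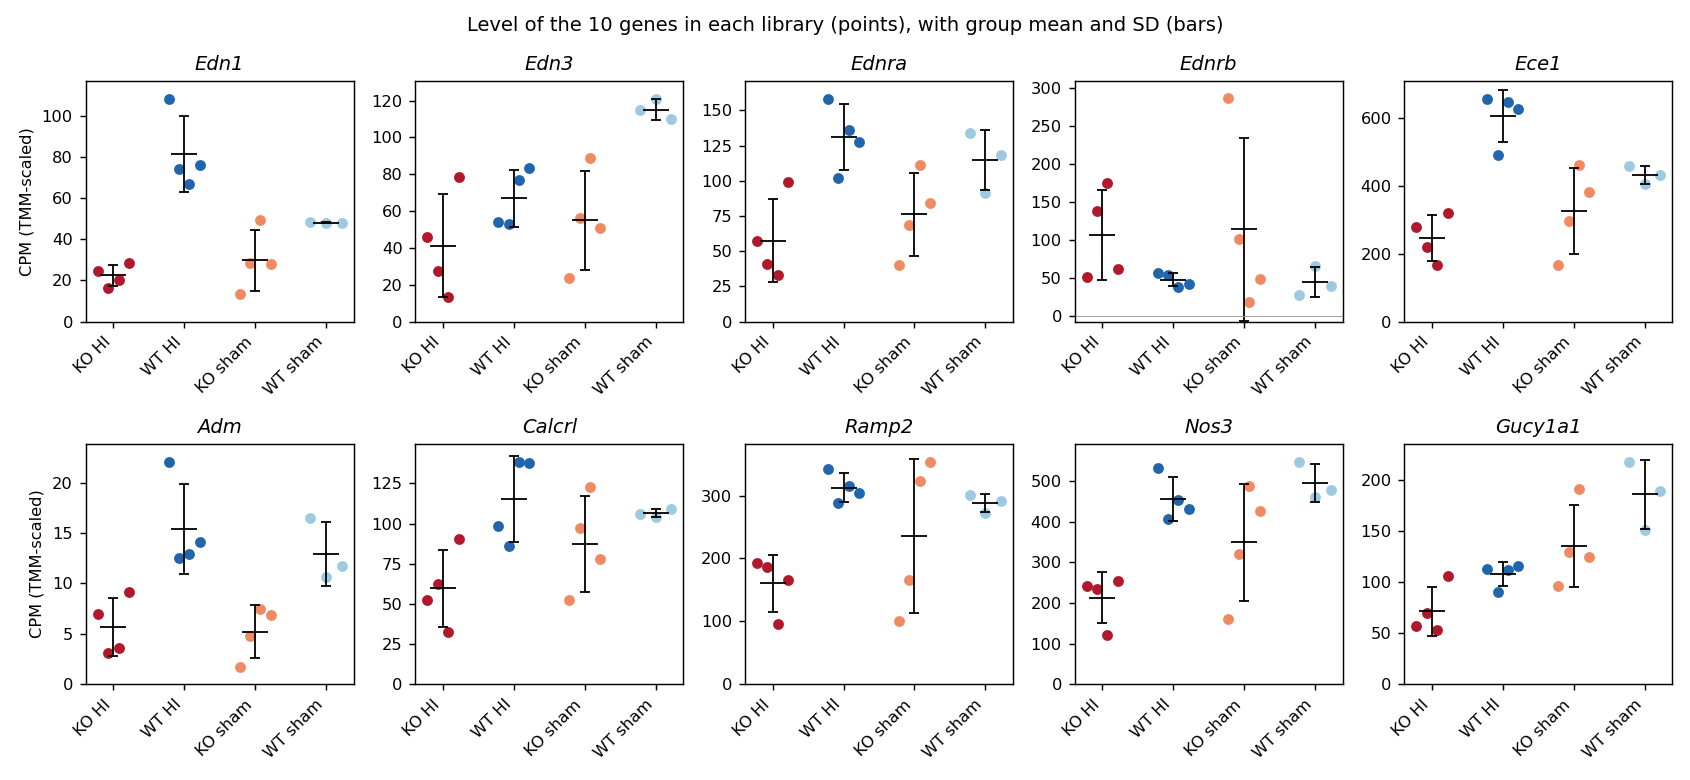
TMM-scaled CPM (y axis, 1 panel a gene, each with its own scale) in every library, with the mean and SD of KO HI, WT HI, KO sham and WT sham. The 4 WT HI libraries are the highest for Edn1 and Ece1, the 3 WT sham libraries are the highest for Edn3, and KO libraries lie below WT libraries for Adm.

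The first comparison asked how the genotypes differed after HI. In KO HI libraries 5 of the 10 genes were lower than in WT HI: Edn1, Ece1, Nos3, Ednra and Adm. Called here means a p from edgeR's quasi-likelihood test that stayed under 0.05 after Benjamini-Hochberg adjustment over the 14853 tested genes. Among all tested genes 12.4% were called in either direction and 6.46% lower, so 5 of 10 stands against 6.46%. None of the 10 was called higher, against 5.96% of all tested genes. Edn1 had the largest difference of the 10, a log2 fold change of -1.86 ± 0.31 (SE; 3.63-fold lower; edgeR adjusted p = 0.00592). Ece1 was 2.46-fold lower (-1.30 ± 0.27, edgeR adjusted p = 0.0118), and Nos3 was 2.14-fold lower (-1.10 ± 0.30, edgeR adjusted p = 0.0307). The log2 fold change of Ednra was -1.19 ± 0.34 (2.27-fold lower; edgeR adjusted p = 0.04), and that of Adm was -1.43 ± 0.44 (2.69-fold lower; edgeR adjusted p = 0.0487). All 4 KO HI libraries lay below all 4 WT HI libraries for 6 of the 10 genes, the 5 named and Ramp2, as they did for 11.5% of all tested genes.

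The other 5 genes did not pass in that comparison. Calcrl stood at -0.95 ± 0.30 (edgeR adjusted p = 0.0529) and Ramp2 at -0.96 ± 0.33 (adjusted p = 0.0707), both just above the threshold. Gucy1a1 had -0.59 ± 0.24 (edgeR adjusted p = 0.111) and Edn3 at -0.70 ± 0.45 (adjusted p = 0.302). Ednrb alone had a positive value, 1.16 ± 0.66 (edgeR adjusted p = 0.237), with its highest values in KO HI 2 and 3. The median log2 fold change of the 10 genes was -1.03, against 0.06 over all tested genes.

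Endothelial and pericyte markers were lower in KO HI libraries as well. Of 12 endothelial markers 9 were called lower, and for all 12 KO HI lay below WT HI without overlap. Of 10 pericyte markers 4 were called lower, of 8 smooth muscle markers 2 were called lower, and of 9 microglia markers all 9 were called higher. The part of smooth muscle and microglial RNA in these results was not tested. With the endothelial and pericyte marker levels as covariates, 24.7% of all tested genes were called and 12.3% were called lower, so a count of 2 of the 10 members is near the background. The 2 of the 10 genes called lower in that fit were Edn1 at -0.98 ± 0.29 (edgeR adjusted p = 0.0291) and Ece1 at -0.37 ± 0.11 (adjusted p = 0.0323). In that fit Nos3 stood at -0.04 ± 0.08 (edgeR adjusted p = 0.746), Adm at -0.08 ± 0.30 (adjusted p = 0.872) and Ednra at -0.16 ± 0.09 (adjusted p = 0.184). The covariates did not overlap between these groups. Mean log2 CPM of endothelial markers was 7.24 to 8.32 in KO HI and 8.91 to 9.24 in WT HI. For pericyte markers it was 6.39 to 8.09 and 8.22 to 8.74. The adjusted values thus reach beyond any marker level that both groups had. Ednrb had -1.05 ± 0.48 with these covariates and -0.02 ± 0.24 with neuron and choroid plexus covariates, so its sign was not stable. With the neuron and choroid plexus covariates, where 8.27% of all tested genes were called lower, all 5 stayed called, Edn1 at -1.47 ± 0.21 (edgeR adjusted p = 0.00191). Without the 5 libraries with high neuron markers Edn1 stood at -1.64 ± 0.26 (edgeR adjusted p = 0.00601), Ece1 at -1.04 ± 0.14, Nos3 at -0.90 ± 0.13 and Adm at -0.95 ± 0.27, all called, and Ednra at -0.77 ± 0.24 (adjusted p = 0.0515), where 10.9% of all tested genes were called lower. The KO HI libraries left in that fit were KO HI 1 and KO HI 4. Leaving out KO HI 1, KO HI 3, WT HI 1, WT HI 4 or WT HI 5 left 2 genes called. Leaving out KO HI 2, KO sham 3 or any WT sham library left 3. Over these fits with 1 library left out, 3.24% to 24.4% of all tested genes were called.

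**Figure D3:**
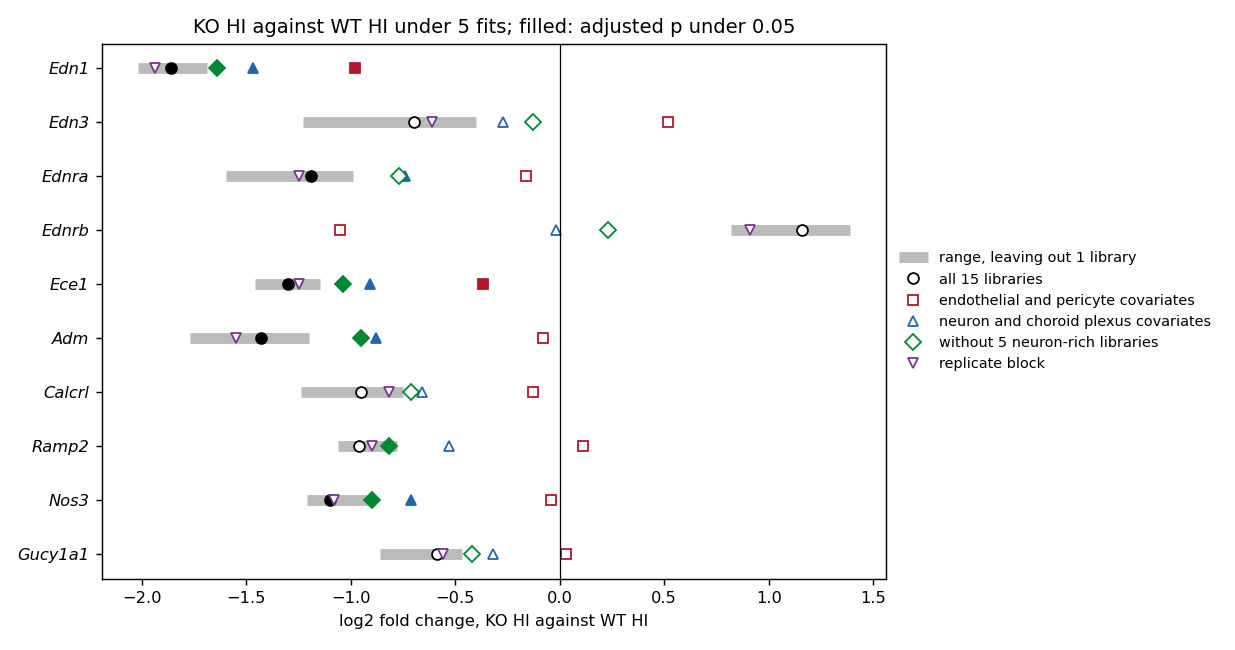
Log2 fold change of KO HI against WT HI (x axis) for the 10 genes under 5 fits, with a grey bar for the range when 1 library is left out; filled symbols have an adjusted p under 0.05. With endothelial and pericyte covariates Edn1 (-0.98) and Ece1 (-0.37) keep a filled symbol and the other 8 do not.

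Levels were also set against the summed marker RNA of each library. Nos3 had 52.3 ± 1.07 CPM per 1000 CPM of summed endothelial markers in KO HI, 54.6 ± 0.982 in WT HI, 57.5 ± 1.8 in KO sham and 57.4 ± 2.76 in WT sham (SD, n = 4, 4, 4 and 3), a narrow span for a gene whose CPM varied widely. Edn1 had 5.91 ± 2.13 in KO HI, 9.74 ± 1.37 in WT HI, 4.89 ± 0.967 in KO sham and 5.61 ± 0.468 in WT sham on the same scale. Its WT HI libraries (8.08 to 11.4) lay above both sham groups (3.7 to 6.07 in KO, 5.25 to 6.14 in WT), while KO HI (3.75 to 8.82) overlapped WT HI and KO sham. Ece1 had 61.8 ± 8.97 in KO HI, 72.8 ± 5.94 in WT HI, 54.6 ± 4.29 in KO sham and 50.2 ± 1.51 in WT sham. Ramp2 had 39.8 ± 3.91, 37.6 ± 1.37, 37.8 ± 7.45 and 33.5 ± 1.1 in KO HI, WT HI, KO sham and WT sham. Edn1 and Ece1 thus had their highest mean per endothelial marker in WT HI libraries, and Nos3 and Ramp2 did not. Per pericyte marker this held for Edn1, at 7.71 ± 3.12 in KO HI, 10.9 ± 2.36 in WT HI, 5.2 ± 0.572 in KO sham and 4.99 ± 0.829 in WT sham. It did not hold for Ece1, which had 81.0 ± 18 in KO HI, 80.8 ± 1.79 in WT HI, 59.2 ± 10.8 in KO sham and 44.5 ± 4.85 in WT sham.

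Against the summed pericyte markers, Ednra had 17.5 ± 1.8 CPM per 1000 CPM in KO HI and 17.4 ± 1.29 in WT HI, against 13.8 ± 1.95 in KO sham and 11.6 ± 0.334 in WT sham. The means of the HI groups differed by less than 1 SD, and all 4 WT HI libraries (16.2 to 19.2) lay above the WT sham libraries (11.2 to 11.9). Gucy1a1 had 23.3 ± 6.28 in KO HI, 14.3 ± 0.774 in WT HI, 25.5 ± 4.99 in KO sham and 18.9 ± 0.436 in WT sham. WT HI (13.7 to 15.3) was lowest, below WT sham (18.5 to 19.3) without overlap. Adm had 1.77 ± 0.493 in KO HI, 2.05 ± 0.477 in WT HI, 0.908 ± 0.327 in KO sham and 1.31 ± 0.155 in WT sham. These ratios are descriptions and were not tested.

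**Figure D4:**
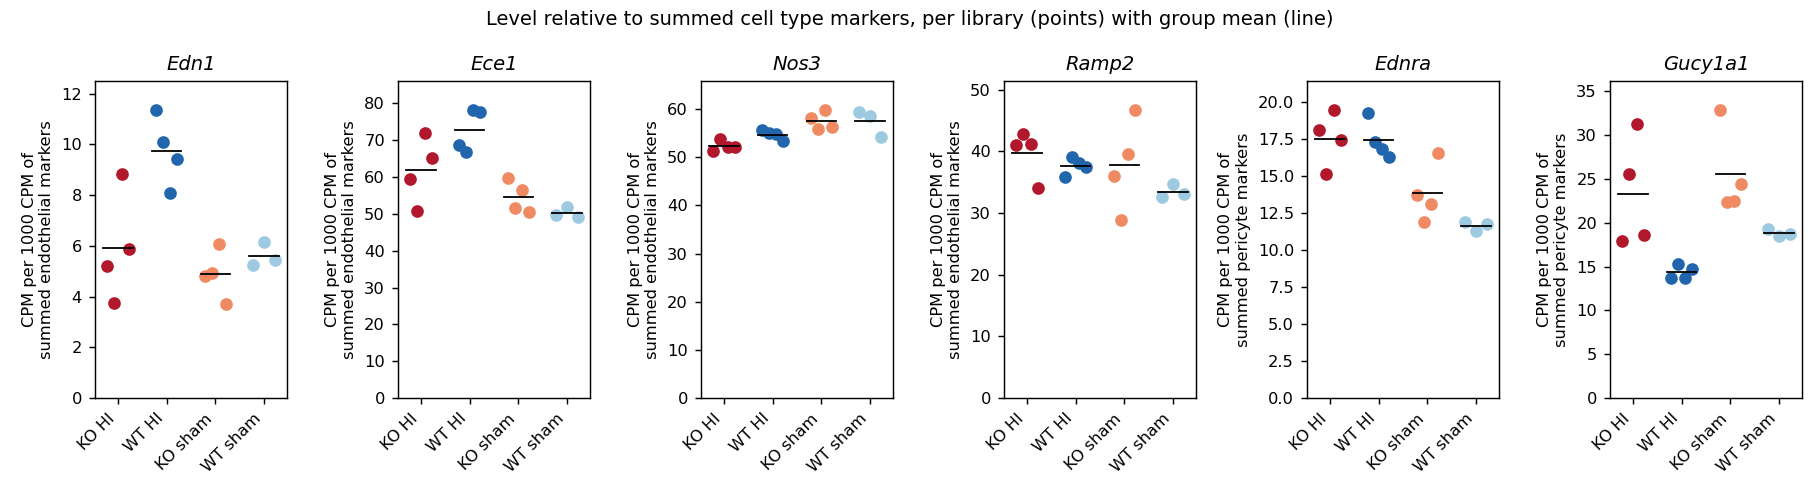
CPM of 6 genes per 1000 CPM of summed endothelial (Edn1, Ece1, Nos3, Ramp2) or pericyte (Ednra, Gucy1a1) markers in each library, with the mean of KO HI, WT HI, KO sham and WT sham as a line. Nos3 stays between 51.2 and 59.8 in all 15 libraries, Edn1 is highest in WT HI, and Gucy1a1 is lowest in WT HI.

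The second comparison asked what HI did in WT mice. The values of Edn1 and Ece1 were higher, and those of Edn3 and Gucy1a1 lower, in every WT HI library than in every WT sham library, but 0 of the 10 genes passed edgeR's test over all libraries. In that comparison 1.82% of all tested genes were called. Groups did not overlap, with HI higher, for 2 of the 10 genes (15.9% of all tested genes), and with HI lower for another 2 (15.8%). Both counts are near those shares. Edn1 had a log2 fold change of 0.76 ± 0.33 (1.69-fold; edgeR adjusted p = 0.349) and Ece1 of 0.49 ± 0.29 (1.4-fold; edgeR adjusted p = 0.555). Gucy1a1 stood at -0.79 ± 0.25 (1.73-fold lower; edgeR adjusted p = 0.155) and Edn3 at -0.78 ± 0.48 (1.72-fold lower; edgeR adjusted p = 0.574). The other 6 genes lay between -0.12 ± 0.32 (Nos3) and 0.25 ± 0.46 (Adm).

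These WT calls depended on which libraries set the spread. Fitted to the WT libraries alone, which varied less than the KO libraries, the same 4 genes were called: Edn1 (edgeR adjusted p = 0.0182), Edn3 (adjusted p = 0.0185), Ece1 (adjusted p = 0.0238) and Gucy1a1 (adjusted p = 0.00903), at the log2 fold changes just given. In that fit 17.1% of all tested genes were called. DESeq2 called Gucy1a1 alone (adjusted p = 0.0421), against 5.26% of all tested genes, and limma-voom called 0. An unadjusted edgeR p under 0.05 was found for 2 of the 10, against 1901 of 14853 tested genes. With endothelial and pericyte covariates Edn1 (0.83 ± 0.21, edgeR adjusted p = 0.0298), Ece1 (0.55 ± 0.08, adjusted p = 0.00278), Ednra (0.33 ± 0.07, adjusted p = 0.0111) and Gucy1a1 (-0.69 ± 0.12, adjusted p = 0.00618) were called, as were 9.99% of all tested genes.

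The third comparison asked the same in KO mice. Gucy1a1 fell in KO HI libraries, by 0.92 ± 0.24 on the log2 scale (1.90-fold lower; edgeR adjusted p = 0.035), and was the 1 gene of the 10 called, where 7.01% of all tested genes were called and 2.13% were called lower. Its groups overlapped at 1 KO HI library, and the call was made in 12 of 24 settings, with adjusted p between 0.00208 and 0.2 and log2 fold changes between -1.20 and -0.71. It was lost without KO HI 1 or 3, KO sham 3, 4 or 6, WT HI 1, 4 or 5, or WT sham 3, without the 5 libraries with high neuron markers (-0.97 ± 0.29, edgeR adjusted p = 0.0524), with the KO libraries alone and with the replicate block. With endothelial and pericyte covariates it stood at -0.75 ± 0.13 (edgeR adjusted p = 0.00236), where 35% of all tested genes were called. Smooth muscle markers fell in the same comparison: 3 of 8 were called lower (Acta2, Pln and Myl9), with a median log2 fold change of -1.07 over the 8, and they summed to 791.0 to 1528.8 CPM in KO HI against 1642.2 to 4488.8 CPM in KO sham. The part of smooth muscle RNA in the Gucy1a1 level was not tested. Edn1 and Ece1 did not have positive values in KO mice, at -0.41 ± 0.30 (edgeR adjusted p = 0.493) and -0.40 ± 0.27 (adjusted p = 0.424). Nos3 stood at -0.71 ± 0.29 (edgeR adjusted p = 0.172) and was called at -0.96 ± 0.22 (adjusted p = 0.0185) without KO sham 1, the library richest in neuron and astrocyte transcripts. Calcrl and Ramp2 both stood at -0.55, with SEs of 0.30 and 0.33. With the 5 neuron-rich libraries left out, Nos3 (-0.90 ± 0.14, edgeR adjusted p = 0.0066) and Ramp2 (-0.93 ± 0.11, adjusted p = 0.00316) were the 2 members called, where 7.88% of all tested genes were called lower. The KO libraries left in that fit were KO HI 1 and 4 and KO sham 4 and 6.

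The fourth comparison set the genotypes against each other in sham mice. All genes but Ednrb had negative values in KO sham libraries, and 0 of 10 passed, where 0.0135% of all tested genes were called. By DESeq2 and limma-voom 0 were called too. An unadjusted edgeR p under 0.05 was found for 2 of the 10, against 1272 of 14853 tested genes. Adm stood at -1.31 ± 0.46 (2.48-fold lower; edgeR adjusted p = 0.477) and Edn3 at -1.07 ± 0.48 (2.1-fold lower; adjusted p = 0.477). For both, KO sham lay below WT sham without overlap, as for 5.49% of all tested genes. Edn1 stood at -0.69 ± 0.32 (edgeR adjusted p = 0.477) and Ednrb at 1.37 ± 0.73 (adjusted p = 0.477). KO sham libraries were uneven, so that Ramp2 ran from 99.7 to 354.0 CPM and Edn1 from 13.4 to 49.6 CPM within the group.

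The last comparison asked whether the HI response differed between genotypes, as the KO response minus the WT response. None of the 10 genes passed edgeR's test (0%, as for all tested genes), and DESeq2 and limma-voom called 0 of the 10. Edn1 had a difference of -1.17 ± 0.45 (edgeR adjusted p = 0.932) and Ece1 of -0.89 ± 0.39 (adjusted p = 0.932), the 2 genes with an unadjusted p under 0.05. Such a p was found for 768 of 14853 tested genes. The unadjusted 95% intervals were -2.05 to -0.29 for Edn1 and -1.66 to -0.12 for Ece1, so the missed threshold does not show equal responses. Calcrl and Ramp2 both stood at -0.67, Nos3 and Ednra at -0.59. Gucy1a1 had a difference of -0.13 ± 0.35, and its interval of -0.81 to 0.54 leaves room for a difference either way. The comparisons share libraries, so their values for one gene are not independent of each other: for Edn1 the log2 fold changes were -0.41 in KO and 0.76 in WT mice for HI against sham, and -1.86 after HI and -0.69 in sham for KO against WT.

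**Figure D5:**
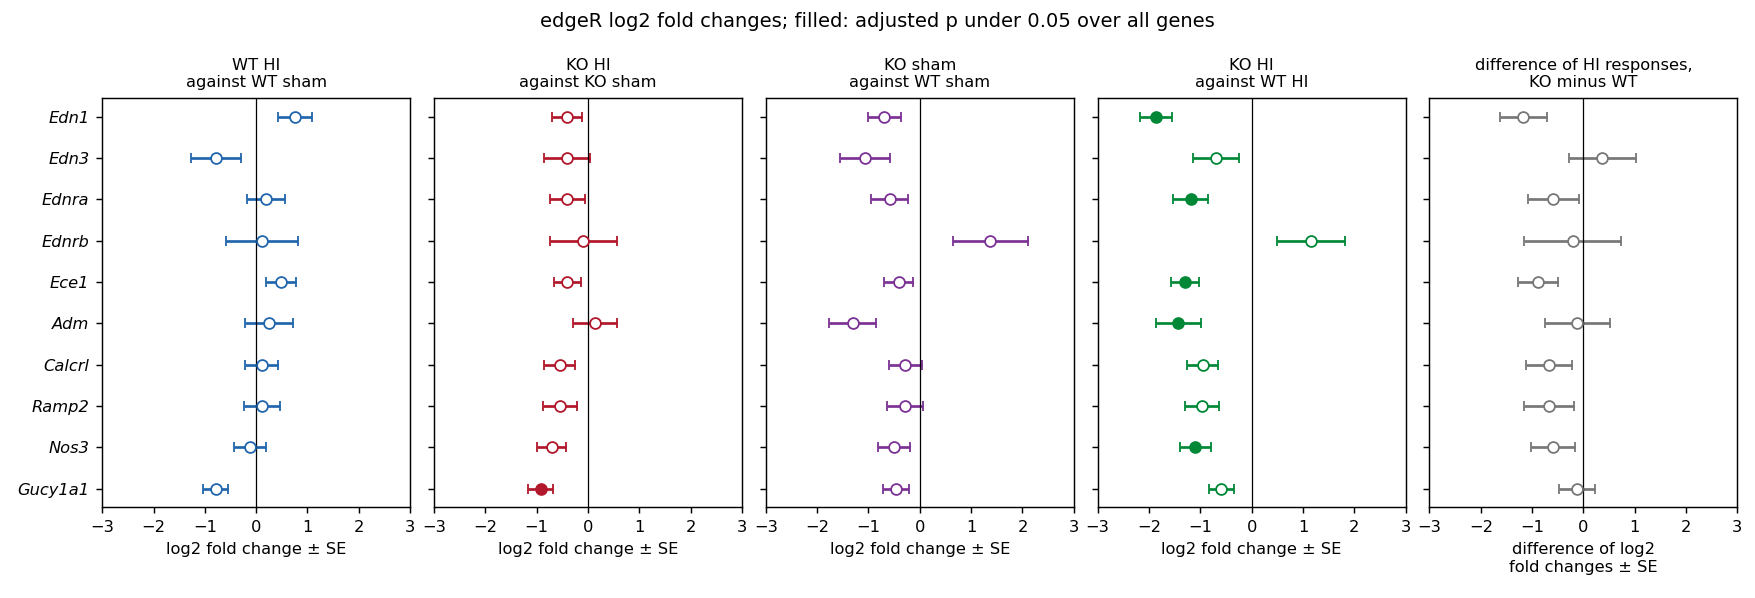
Log2 fold changes with SE (x axis) of the 10 genes in the 4 pairwise comparisons and the difference of HI responses; filled points have an adjusted p under 0.05 over all tested genes. Filled points are Gucy1a1 in KO HI against KO sham and Edn1, Ednra, Ece1, Adm and Nos3 in KO HI against WT HI.

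Other genes of the same pathways were taken from 4 lists of 50 genes, of which 41 were tested. The other endothelin and adrenomedullin genes were scarce or did not pass: of 5 further endothelin genes 2 were tested and of 8 adrenomedullin and CGRP genes 4, with 0 called in any comparison of the fit over all libraries. Edn2, the third endothelin, had 0 to 5 counts in KO HI libraries and 1 to 4 in WT HI, and 0 counts in every sham library, where 3 counts per library are the limit that a count of 0 allows. Ramp1, which turns Calcrl into the CGRP receptor, had 10.8 to 46.6 CPM in KO HI, 7.75 to 11.4 CPM in WT HI, 11.7 to 95.3 CPM in KO sham and 8.24 to 16.5 CPM in WT sham, highest in KO sham 1 and KO HI 3 as Ednrb was. Ramp3, which makes a further adrenomedullin receptor, stayed between 1.03 and 4.76 CPM. With endothelial and pericyte covariates both were called lower in KO HI against WT HI, Ramp1 at -1.04 ± 0.26 (edgeR adjusted p = 0.018; 1.23 ± 0.62 without covariates) and Ramp3 at -1.76 ± 0.42 (adjusted p = 0.0151), so the sign of Ramp1 was not stable.

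Of 17 genes of nitric oxide synthesis, 5 were called lower in KO HI against WT HI and 0 higher, against 6.46% and 5.96% of all tested genes. None of the 5 (Ass1, Slc7a2, Cav1, Nos1 and Ddah2) stayed called with endothelial and pericyte covariates, where Ass1 stood at -0.57 ± 0.26 (edgeR adjusted p = 0.131) and Nos1 at -0.88 ± 0.37 (adjusted p = 0.101). Ass1, which remakes the substrate arginine, had 8.76, 13.2, 12.2 and 12.5 CPM in KO HI libraries, 20.1, 15.7, 23.0 and 24.0 CPM in WT HI, 17.0, 20.4, 28.5 and 17.8 CPM in KO sham, and 22.8, 19.2 and 22.9 CPM in WT sham. KO HI was the lowest group in all its libraries, with a log2 fold change of -0.83 ± 0.19 against WT HI (edgeR adjusted p = 0.0173) and -0.84 ± 0.19 against KO sham (adjusted p = 0.0214). Nos1, the neuronal synthase, had 7.29, 14.2, 17.0 and 17.7 CPM in KO HI, 28.4, 20.4, 33.5 and 31.2 CPM in WT HI, 28.4, 28.0, 47.5 and 22.4 CPM in KO sham, and 28.8, 23.4 and 26.5 CPM in WT sham. It too was lowest in all KO HI libraries, at -1.01 ± 0.28 against WT HI (edgeR adjusted p = 0.0339) and -1.17 ± 0.28 against KO sham (adjusted p = 0.0278). Nos2, the inducible synthase, was not called in any comparison of the fit over all libraries, with 9.68 to 25.6 CPM in KO HI, 25.4 to 36.5 CPM in WT HI, 12.1 to 39.7 CPM in KO sham and 40.6 to 54.8 CPM in WT sham.

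In KO HI against KO sham, 1 of the 17 genes of nitric oxide synthesis rose and 3 fell, against 4.88% called higher and 2.13% called lower among all tested genes. These 4 were also called with endothelial and pericyte covariates, where 35% of all tested genes were called. Of the 9 microglia markers 3 rose in the same comparison (Aif1, C1qa and C1qb), and the part of microglial RNA in these values was not tested. Arg1, the arginase that competes for arginine, had 66.7, 29.9, 70.1 and 123.9 CPM in KO HI libraries, 35.5, 42.8, 28.4 and 22.1 CPM in WT HI, 9.15, 10.9, 23.1 and 11.7 CPM in KO sham, and 10.2, 10.5 and 9.9 CPM in WT sham. It rose by 2.4 ± 0.39 on the log2 scale in KO mice (5.29-fold; edgeR adjusted p = 0.00579) and had 1.66 ± 0.43 in WT mice (adjusted p = 0.0697), with no overlap between HI and sham in either genotype. Ddah2, which breaks down inhibitors of the synthases, fell in KO mice, by 0.49 ± 0.10 (edgeR adjusted p = 0.0169), as did Ass1 and Nos1. Over all 41 related genes tested, 4 were called in this comparison, where 7.01% of all tested genes were called. That count was 1 without KO HI 1, 2 without KO sham 4, 10 without KO HI 4 and 13 without KO sham 1. Over the fits with 1 library left out, 2.39% to 13% of all tested genes were called.

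Of 18 tested genes of cyclic GMP signalling, 4 were called lower in KO HI against WT HI, against 6.46% of all tested genes. With endothelial and pericyte covariates none of the 4 (Pde1a, Npr2, Abcc4 and Gucy1b1) stayed called, and Abcc4 stood at -0.10 ± 0.10 (edgeR adjusted p = 0.518). In the fit without covariates Abcc4, a pump that exports cyclic nucleotides, stood at -0.77 ± 0.20 (edgeR adjusted p = 0.0282), Npr2, the receptor of C-type natriuretic peptide, at -0.62 ± 0.17 (adjusted p = 0.0311) and Gucy1b1 at -0.77 ± 0.22 (adjusted p = 0.0409). Gucy1b1, the partner chain of Gucy1a1, had 53.5 to 100.2 CPM in KO HI, 96.4 to 129.2 CPM in WT HI, 91.6 to 163.0 CPM in KO sham and 130.7 to 195.0 CPM in WT sham. The log2 ratio of Gucy1a1 to Gucy1b1 was 0.02 ± 0.09 in KO HI, -0.14 ± 0.05 in WT HI, 0.22 ± 0.18 in KO sham and 0.19 ± 0.02 in WT sham, and it ran from -0.20 to 0.44 over the 15 libraries. Over the 41 tested genes the median log2 fold change of KO HI against WT HI was -0.46, with 9 called lower and 0 higher, against 0.06 over all genes. The 9 became 0 without KO HI 1, WT HI 1, WT HI 4 or WT HI 5, 1 without KO HI 3, 4 without KO HI 2, WT sham 1 or WT sham 3 and 5 without WT sham 2, and they became 14 without KO HI 4 or KO sham 4 and 19 without KO sham 1. In WT HI against WT sham and in KO sham against WT sham edgeR called 0 of the 41. Among all tested genes 1.82% and 0.0135% were called. At an unadjusted edgeR p under 0.05 there were 3 and 5 of the 41, against 1901 and 1272 of 14853 tested genes.

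The genes most alike in profile were those whose log2 ratio to a member varied least over the 15 libraries, among about 10654 genes with a mean of at least 10 CPM. Nos3 had the closest neighbours, Hspa12b (SD of the log2 ratio 0.06), Kdr (0.09) and Arhgef15 (0.09), against a median SD of 0.70 over all genes. Ece1 was nearest to Mapk12 (0.11), Pecam1 (0.12) and Tns2 (0.13), and Ramp2 to Tie1 (0.13), Rasip1 (0.13) and Scarf1 (0.14). Kdr, Pecam1 and Tie1 were on the endothelial marker list. Ednra was nearest to Pdgfrb (0.13), Lamc1 (0.13) and Ndufa4l2 (0.14), and Adm to Rflna (0.18), Kcnj8 (0.19) and Depp1 (0.22), where Pdgfrb and Kcnj8 were on the pericyte list.

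The remaining genes had neighbours outside those lists. Edn3 was nearest to the collagen and laminin chain genes Col4a6 (0.15) and Lamc3 (0.21) and to Tmem132c (0.22). Calcrl was nearest to Ahnak (0.14), Vcl (0.14) and Zfp979 (0.15), and Gucy1a1 to Lmo7 (0.14), Gfra2 (0.17) and its partner Gucy1b1 (0.18). The neighbours of Edn1 and Ednrb were farther away: Sik1 (0.24), Kcne4 (0.24) and C1qtnf1 (0.27) for Edn1, and Klf15 (0.25), Ric3 (0.32) and Srgap3 (0.32) for Ednrb. These SDs are a description over libraries that differ in cell makeup.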

How the data were processed

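The values deposited by the authors are raw expected counts (estimated reads per gene). No unit is named in the file; RSEM 1.3.1, listed in the submitters' processing notes, and a share of 3.12% to 3.92% non-whole values in each library gave it. Those notes also list HISAT2 2.1.0, Bowtie2 2.4.4, Bowtie, DESeq2 1.4.5 and the build mm39, with no role or order. Of 65535 lines, 17892 had values and 47643 were blank in all libraries, and 17862 of the lines with values matched a RefSeq symbol.

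Expected counts were rounded, and 14853 genes passing filterByExpr were tested in 1 fit of 4 group means over 15 libraries with edgeR 4.0.16 (TMM, glmQLFit, glmQLFTest) in R 4.3.3. All 10 members passed the filter, and calls needed a p under 0.05 after Benjamini-Hochberg adjustment over all tested genes, separately in 5 contrasts. The biological coefficient of variation was 38.6%. The chi-square per degree of freedom between replicates was 44.6 to 384 in KO and 11.3 to 46.7 in WT groups, so no library was a repeat of another. SEs are the log2 fold change divided by the square root of F. An interval is 1.96 SEs either way, which is narrower than a 95% interval of the F test. For Edn1 in KO sham against WT sham it was -1.33 to -0.06, at an unadjusted edgeR p of 0.0526. Total counts were at least 15436376 per library, but Adm had as few as 23 counts, and counting error was not assessed apart. Intervals cover the spread between libraries only. The fit was tested on simulated data.

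The edgeR alternatives were relative log expression size factors, no filter, the 2 groups of a contrast alone and the replicate number as a block. Further edgeR fits used marker covariates, left out the 5 libraries with high neuron markers, or left out each library in turn. The DESeq2 1.42.0 Wald test and limma-voom (limma 3.58.1) were the other alternatives. Named genes were the 10 members, up to 4 called genes of the related lists per pairwise contrast by p, the genes Gucy1b1, Ramp1, Ramp3, Edn2, Nos1 and Nos2, and the 3 nearest profiles of each member. Cell type markers were summed over 9 lists. The members and lists were chosen with earlier results of these data known. Exon lengths, positions and sequences come from GENCODE and RefSeq of GRCm38, not of mm39.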

Additional observations from a re-analysis of the deposited data

Results flagged for a closer look

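Among 30 pairs of a member and a group of 4 libraries, the library at one end stood apart from the rest (its gap to the nearest library over the range of the group above 0.829) in 3, where chance gives about 1 in 20. Nos3 had 120.2 CPM in KO HI library 3, with a gap of 0.847 of the range, against 234.4 to 255.0 CPM in the other 3. Adm had 22.1 CPM in WT HI library 1, with a gap of 0.837, against 12.5 to 14.1 CPM in the others. Gucy1a1 had 90.0 CPM in WT HI library 2, with a gap of 0.855, against 111.5 to 115.2 CPM in the others. KO HI 3 is also the KO HI library with the lowest summed endothelial markers, 2312.0 CPM, and Nos3 per 1000 CPM of those markers was between 51.2 and 53.8 in all 4 KO HI libraries.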

How the results depend on the processing

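Counts of called genes depended on the setting. Of the 10 members, KO HI against WT HI called 5 in the reported fit, 2 with endothelial and pericyte covariates, 0 with the replicate block and 2 to 7 with 1 library left out. KO HI against KO sham called 1, and 0 with its 2 groups alone or the replicate block, 2 with endothelial and pericyte covariates, 5 with neuron and choroid plexus covariates, 2 without the 5 libraries with high neuron markers (Nos3 and Ramp2, not Gucy1a1) and 0 to 2 with 1 library left out. WT HI against WT sham called 0, and 1 with DESeq2, 4 with its 2 groups alone, 4 with endothelial and pericyte and 2 with neuron and choroid plexus covariates. Of the 41 related genes tested, WT HI against WT sham called 0, and 1 with DESeq2, 8 with its 2 groups alone, 5 and 6 with the vascular and the neuron covariates, 3 without the 5 libraries and 0 to 1 with 1 library left out. KO HI against KO sham called 4 of them, and 11, 0, 20, 17 and 9 in those settings, 0 with the replicate block and 1 to 13 with 1 library left out. KO HI against WT HI called 9, and 19 with DESeq2, 10 with endothelial and pericyte covariates (0 of them among the 9), 11 with neuron and choroid plexus covariates or without the 5 libraries (4 of the 9 in each), 0 with the replicate block and 0 to 19 with 1 library left out, 19 being without KO sham 1 and 0 without KO HI 1, WT HI 1, WT HI 4 or WT HI 5. Shares of all tested genes called moved too, given here for DESeq2, 2 groups alone, vascular and neuron covariates, and without the 5 libraries. WT HI against WT sham had 5.26%, 17.1%, 9.99%, 9.14% and 5.13%. KO HI against KO sham had 13%, 0.111%, 35%, 18.7% and 16.8%. KO HI against WT HI had 22.9%, 13%, 24.7%, 18.6% and 23.5%. With the replicate block these comparisons had 0.108%, 0.491% and 0.141%. The cause of these shifts was not tested. Whether the numbers pair the libraries is not settled. The labels do not say, and correlations of same-numbered deviations ran from -0.797 to 0.811. Fitting the block left 0 members and 0 related genes called in KO HI against KO sham and in KO HI against WT HI.
Signs turned as follows. With endothelial and pericyte covariates the log2 fold change in KO sham against WT sham was 0.27 for Ednra, -0.58 for Ednrb, 0.16 for Ece1, 0.31 for Calcrl, 0.13 for Ramp2, 0.04 for Nos3 and 0.09 for Gucy1a1; in KO HI against WT HI 0.52 for Edn3, -1.05 for Ednrb, 0.11 for Ramp2 and 0.03 for Gucy1a1; in KO HI against KO sham 0.02 for Ece1 and 0.10 for Ramp2; in the difference of responses 0.28 for Adm. With neuron and choroid plexus covariates it was -0.09 for Ednra, -0.10 for Adm, -0.07 for Calcrl and -0.12 for Ramp2 in WT HI against WT sham, 0.59 for Ednrb in KO HI against KO sham, -0.02 for Ednrb in KO HI against WT HI and 0.18 for Adm in the difference. With the replicate block it was -0.04 for Ednra, -0.26 for Calcrl and -0.09 for Ramp2 in WT HI against WT sham, and 0.29 for Adm and 0.11 for Gucy1a1 in the difference. Without the 5 libraries Ednrb had 0.73 in KO HI against KO sham and 0.21 in the difference, Ramp2 0.19 in KO sham against WT sham, and Adm 0.03 in the difference; limma-voom gave Ednrb 0.38 and 0.20 in the same comparisons. With 1 library left out, Ednrb ran from -0.15 to 0.52 in WT HI against WT sham, -0.45 to 0.92 in KO HI against KO sham and -0.61 to 0.80 in the difference, Adm from -0.21 to 0.35 in KO HI against KO sham and -0.46 to 0.11 in the difference, Edn3 from -0.15 to 0.70 and Gucy1a1 from -0.40 to 0.08 in the difference. None of these genes was called in the reported fit of that comparison. The lowest count of a member was 23 (Adm in KO sham 1), and the effect of depth was not tested. Fitting 2 groups alone was not run for the difference, which uses all libraries.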
